A study of Mus musculus with 54 samples.

Results

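Mammary glands of mice on the first day of pregnancy were set against glands of virgin mice 12 weeks old. The comparison takes the 3 arrays titled Pregnancy day 1 (mice A, B and C) and the 3 titled Virgin 12 weeks (mice A, B and C), 6 of the 54 arrays of a time course with 18 time points. All 12422 non-control probe sets of the 12488 on the array entered it. Each array held RNA of 1 inguinal gland of 1 mouse, taken without its lymph node, so the replicates are separate mice.

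The glands of Pregnancy day 1 came from mice mated at 12 weeks of age, with days counted from a vaginal plug found in the morning. The glands of Virgin 12 weeks came from unmated mice of the age at which the others were mated. No genotype, transgene or drug is named for either group, and the labels name no strain. How day 1 of the titles relates to the day of the plug is not stated. The letters A, B and C name mice. The titles state no pairing across the groups, and the letters were not taken as one.

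The virgin gland is a sparse tree of epithelial ducts in a pad of fat cells, fibroblasts, vessels and immune cells. After mating, progesterone and prolactin drive the ducts to branch and to form alveoli, where luminal cells later make the caseins and the coat of milk fat droplets. Progesterone acts partly through the ligands Tnfsf11 (RANKL) and Wnt4, which receptor-positive cells send to their neighbours, and prolactin acts through Stat5 and with the transcription factor Elf5. The RNA is of whole tissue, so fewer cells of a type and less RNA per cell cannot be told apart.

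Values are signals, the linear brightness that the array software assigns to a probe set, with all signals under 9.4 set to 9.4, called the floor here. A log2 difference is Pregnancy day 1 minus Virgin 12 weeks on the log2 signal. Its standard error (SE) pools the spread of mice over the 18 time points. A probe set was called at an adjusted p under 0.05 in limma. Epithelial and fat cell markers were present on all 6 arrays. The keratin Krt8, of luminal cells, had 696.0, 1780.1 and 726.6 on Pregnancy day 1 and 575.5, 814.4 and 1159.8 in Virgin 12 weeks mice. Adipoq, the fat cell hormone adiponectin, had 4641.0, 4568.2 and 6584.4 on Pregnancy day 1 and 4356.2, 4020.2 and 4261.7 in Virgin 12 weeks mice. Array medians ran from 34.3 to 36.4 on Pregnancy day 1 and from 37.9 to 41.9 in Virgin 12 weeks mice. Between 26.4% and 27.1% of probe sets lay under the floor on Pregnancy day 1, against 20.5% to 25.9% in Virgin 12 weeks mice, and 1445 probe sets were at the floor on all 6 arrays. With 3 arrays a group, their number limits the precision, and the median SE was 0.28 on the log2 scale.

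The arrays of Pregnancy day 1 mice A and B stood apart in a control measure. The array carries probe sets at both ends of the Gapdh transcript, and their 3' to 5' ratio grows when cRNA is cut short of the 5' end. The Gapdh ratio was 23.1, 20.1 and 2.43 in Pregnancy day 1 mice A, B and C, against 2.20, 4.71 and 4.93 in Virgin 12 weeks mice. The other 48 arrays ranged from 0.847 to 10.0 with a median of 1.73, so 0 of them reached the ratios of mice A and B. It was the 5' signal that differed, at 113.8, 167.7 and 1245.1 on Pregnancy day 1 and 1781.1, 620.6 and 595.2 in Virgin 12 weeks mice. The 3' signal lay between 2631.0 and 3371.0 on Pregnancy day 1 and between 2925.8 and 3916.8 in Virgin 12 weeks mice. Group means were 15.2 ± 11.2 and 3.95 ± 1.52 (SD, n = 3 each), and a two-sided exact permutation test gave p = 0.3.

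Beta-actin gave another order of the mice. Its 3' to 5' ratio was 3.73, 2.54 and 4.15 in Pregnancy day 1 mice A, B and C, against 1.43, 2.17 and 2.35 in Virgin 12 weeks mice. All 3 Pregnancy day 1 arrays lay above all 3 Virgin 12 weeks arrays, with mouse C, low in the Gapdh ratio, highest. Means were 3.47 ± 0.833 and 1.99 ± 0.487 (SD, n = 3 each). The exact permutation p was 0.1, the smallest that 3 against 3 arrays can give. The other 48 arrays spanned 1.09 to 4.05 with a median of 2.19, so mouse C lay above all of them, and 16 of them reached the ratio of mouse B.

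**Figure D1:**
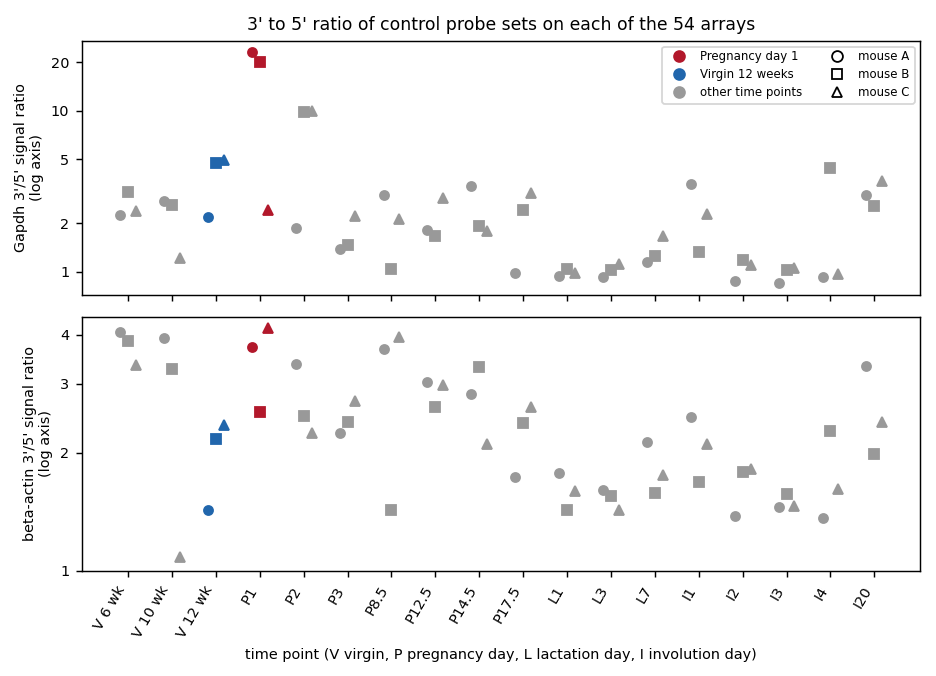
The 3' to 5' signal ratio of the Gapdh (top) and beta-actin (bottom) control probe sets on a log axis, for each of the 54 arrays in order of time point, with 1 symbol per mouse. Pregnancy day 1 mice A and B lie at 23.1 and 20.1 for Gapdh, above all other arrays, while mouse C lies at 2.43.

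Few genes separated the first day of pregnancy from the virgin gland. Of 12422 probe sets 20 were called, which is 0.161%, with 4 higher (0.0322%) and 16 lower (0.129%) on Pregnancy day 1. At an unadjusted p under 0.05 there were 1348 (10.9%), of which 389 (3.13%) were higher and 959 (7.72%) lower. All Pregnancy day 1 mice lay above all Virgin 12 weeks mice for 706 probe sets (5.68%) and below them for 1170 (9.42%). The split moved with the scaling, to 8 higher and 4 lower after quantile normalization and to 4 higher and 5 lower after median scaling. Fitting the 6 arrays alone, limma called 0 probe sets, with 1174 at an unadjusted p under 0.05. The count also turned on single mice: it was 186, with 169 lower, without Virgin 12 weeks mouse C, and 10 without Pregnancy day 1 mouse C. Without Pregnancy day 1 mice A and B together, which leaves mouse C alone to stand for the group, it was 178, with 65 higher and 113 lower.

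A brightness cutoff on each array split the called probe sets. Signals passed 22.8, the 40th percentile of the table, on all 3 arrays of the higher group for 8 of the 20, called bright here. These 8 belong to 8 genes, 4 higher and 4 lower. The other 12, all lower on Pregnancy day 1, did not pass 22.8 on every Virgin 12 weeks array and are called dim here. Their largest geometric mean in Virgin 12 weeks mice was 37.5 (Utf1), above the 29.3 of Galnt6, which counts as bright. For 10 of the 20 every Pregnancy day 1 array was at the floor, so that the group had no measured spread.

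Tph1, the enzyme that limits serotonin synthesis outside the brain, rose most. Its signal was 339.2, 477.0 and 218.4 in Pregnancy day 1 mice A, B and C, against 9.4, 103.5 and 44.5 in Virgin 12 weeks mice. The groups did not overlap, and the Virgin 12 weeks mice differed more among themselves than the day 1 mice. The difference was 3.22 ± 0.66 on the log2 scale (SE), a 9.35-fold change of geometric means, with an adjusted p of 0.0271. Pregnancy day 1 had the highest Tph1 level of the 18 time points. Without Virgin 12 weeks mouse A, whose signal was at the floor, the log2 difference was 2.27 and the adjusted p 0.233. A weaker Tph1 probe set was at the floor on all 6 arrays.

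Among genes of milk, Csn3 and Btn1a1 rose. Csn3 encodes kappa-casein, which keeps casein micelles in suspension. Its signal was 1283.9, 992.5 and 1702.2 on Pregnancy day 1, against 391.9, 115.0 and 661.1 in Virgin 12 weeks mice, a log2 difference of 2.06 ± 0.45 (adjusted p 0.0322). Btn1a1 encodes butyrophilin, a membrane protein of the milk fat globule. It had 145.3, 124.2 and 188.0 on Pregnancy day 1 and 36.8, 21.9 and 75.8 in Virgin 12 weeks mice, a difference of 1.93 ± 0.39 (adjusted p 0.0257). For both genes the groups did not overlap, mouse C was the highest of each group and Virgin 12 weeks mouse B the lowest of the 6. Without that mouse the differences were 1.35 for Csn3 (adjusted p 0.243) and 1.51 for Btn1a1 (adjusted p 0.129).

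The fourth gene that rose was Dynll2, a light chain of the dynein motor. It had 76.5, 79.6 and 87.9 on Pregnancy day 1, against 26.6, 24.1 and 57.3 in Virgin 12 weeks mice, a log2 difference of 1.29 ± 0.25 (adjusted p 0.0226). A brighter Dynll2 probe set did not show it, with 306.7, 216.6 and 353.8 on Pregnancy day 1, against 330.4, 278.1 and 386.5 in Virgin 12 weeks mice (adjusted p 0.951). The 2 probe sets of this gene therefore disagree.

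Hoxd10, a homeobox transcription factor, fell to the floor of 9.4 in all 3 Pregnancy day 1 mice, against 57.9, 50.4 and 27.6 in Virgin 12 weeks mice, at least 4.59-fold lower (adjusted p 0.0271). Galnt6, an enzyme that starts mucin-type sugar chains, was likewise at 9.4 in all 3 Pregnancy day 1 mice, against 38.2, 28.5 and 23.2 in Virgin 12 weeks mice. It was at least 3.12-fold lower (adjusted p 0.0233). Both genes had their highest level of all 18 time points in Virgin 12 weeks mice.

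Fam3a, a member of a family of small secreted proteins, had 16.3, 29.1 and 26.7 on Pregnancy day 1 and 71.3, 60.6 and 60.1 in Virgin 12 weeks mice. The log2 difference was -1.45 ± 0.32 (adjusted p 0.0322), and day 1 was the lowest of the 18 time points. The weaker probe set of Eln, the precursor of elastin fibres, had 9.4, 13.2 and 9.5 on Pregnancy day 1 and 39.5, 37.5 and 35.9 in Virgin 12 weeks mice. That is a difference of -1.83 ± 0.40 (adjusted p 0.0390). The brighter Eln probe set had 820.9, 854.8 and 276.7 on Pregnancy day 1, against 942.1, 868.9 and 848.9 in Virgin 12 weeks mice (adjusted p 0.615). On it mouse C alone was far below the virgin range.

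**Figure D2:**
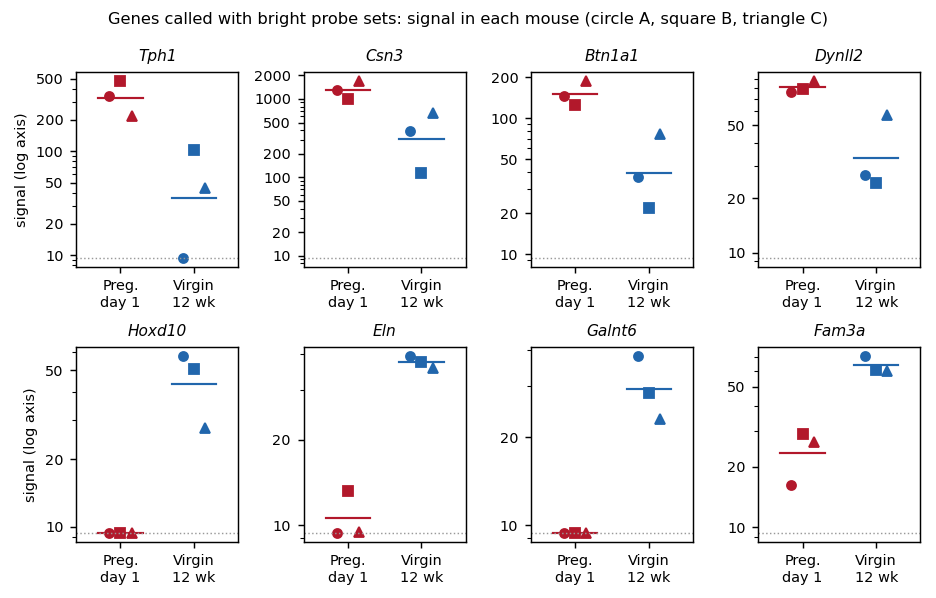
Signal on a log axis in each mouse for the 8 called genes with bright probe sets, Pregnancy day 1 (red) left of Virgin 12 weeks (blue); bars are geometric means of 3 mice and the dotted line is the floor of 9.4. In every panel the groups do not overlap, and Hoxd10 and Galnt6 lie at the floor in all 3 Pregnancy day 1 mice.

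Each of the 8 calls depended on the settings, and the control ratios were among those that ended some. When the ratio of beta-actin was added to the fit, 1 of the 8 genes remained called, Hoxd10, at an adjusted p of 0.0430. With the ratio of Gapdh added instead, Csn3 (0.0291), Btn1a1 (0.0407) and Galnt6 (0.0407) remained called, while Tph1 had 0.0523. Without Pregnancy day 1 mice A and B, Csn3 (0.0440), Btn1a1 (0.0323) and Dynll2 (0.0452) remained called, and Tph1 had 0.173. In all of these fits Tph1 kept a log2 difference between 2.64 and 3.32. Of the fits that leave out 1 of the 6 arrays, the one without Virgin 12 weeks mouse C called all 8 genes. The one without Virgin 12 weeks mouse A called only Csn3 of the 8, that without mouse B Tph1 and Galnt6, that without Pregnancy day 1 mouse A Dynll2 and that without mouse C Tph1. Without Pregnancy day 1 mouse B, 6 were called, all but Tph1 and Hoxd10.

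Dim probe sets that were called included 2 of Ighm, the heavy chain of immunoglobulin M. They were at 9.4 in all 3 Pregnancy day 1 mice, and at 10.9, 10.8 and 9.4 for 1 probe set and 10.7, 13.1 and 9.4 for the other in Virgin 12 weeks mice. A bright Ighm probe set had 329.1, 331.8 and 710.8 on Pregnancy day 1 and 568.2, 649.4 and 542.4 in Virgin 12 weeks mice (adjusted p 0.804). The potassium channel Kcnk3 was at 9.4 in all 3 Pregnancy day 1 mice and at 24.3, 20.6 and 19.0 in Virgin 12 weeks mice, at least 2.25-fold lower (adjusted p 0.00916). The remaining dim calls were Nrk, Utf1, Usp29, Shox2, Cd86, Sema6b, 6330403K07Rik and 2 probe sets with no gene name.

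Below the threshold, the genes next in line among higher signals were Clca1, Plet1, Cck, Slc25a17, Hspa1a, Elf5, Myb and Bmpr1a, with adjusted p from 0.0551 to 0.187. Cck, a peptide hormone of gut and brain, had 28.6, 23.7 and 66.6 on Pregnancy day 1 and was at 9.4 in all 3 Virgin 12 weeks mice (adjusted p 0.105). At Virgin 10 weeks Cck had 81.8, 84.6 and 16.8, and Pregnancy day 1 minus Virgin 10 weeks was -0.45 ± 0.48 (adjusted p 0.961). Virgin 12 weeks minus Virgin 10 weeks was called for Cck, at -2.38 ± 0.48 (adjusted p 0.0175). Hspa1a, the stress-induced chaperone Hsp70, had 119.3, 181.5 and 158.8 on Pregnancy day 1 and 45.4, 90.6 and 61.6 in Virgin 12 weeks mice (adjusted p 0.171). The genes next in line, higher or lower, were taken only where the groups did not overlap, so their non-overlap is no result. Among lower signals the next were Xrcc1, Umpk-ps, Xist, Kif3b, Bcl6b, Ankrd11, Ppara and Gng12, with adjusted p from 0.0506 to 0.124. Another probe set of Gng12 and one of Xrcc1 did not show the fall. The brighter Gng12 probe set had 438.1, 491.2 and 424.9 on Pregnancy day 1 and 354.1, 358.2 and 619.3 in Virgin 12 weeks mice. The other Xrcc1 probe set had 36.9, 15.9 and 23.0 on Pregnancy day 1 and 38.6, 16.1 and 26.6 in Virgin 12 weeks mice. Xist, the RNA that silences an X chromosome, had 9.4, 22.7 and 9.4 on Pregnancy day 1 and 50.0, 55.0 and 32.4 in Virgin 12 weeks mice. At Virgin 10 weeks Xist had 9.9, 12.2 and 10.1, near the day 1 values. Virgin 12 weeks minus Virgin 10 weeks was called for Xist, at 2.06 ± 0.44 (adjusted p 0.0175). Ppara, a nuclear receptor for fatty acids, had 11.4, 17.1 and 14.5 on Pregnancy day 1 and 43.0, 55.1 and 29.7 in Virgin 12 weeks mice.

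Ligands of the progesterone response were not called on day 1, though their levels lay mostly above the virgin range. Tnfsf11 had 48.7, 9.4 and 64.6 in Pregnancy day 1 mice A, B and C, and was at 9.4 in all 3 Virgin 12 weeks mice (log2 difference 1.72 ± 0.44, adjusted p 0.122). Mouse B was still at the floor, where the virgin mice lay. Wnt4 had 64.3, 51.6 and 116.4 on Pregnancy day 1 and 23.3, 33.3 and 26.6 in Virgin 12 weeks mice, without overlap (1.41 ± 0.46, adjusted p 0.251).

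Later days give these values their scale. On Pregnancy day 2 Tnfsf11 reached 153.8, 155.6 and 231.0, and on Pregnancy day 3 it was 121.6, 117.9 and 161.9. Pregnancy day 2 exceeded Pregnancy day 1 by 2.52 ± 0.44 on the log2 scale (adjusted p 0.00420), and Pregnancy day 3 exceeded it by 2.10 ± 0.44 (adjusted p 0.00456). For Wnt4 the values were 127.4, 119.7 and 122.9 on Pregnancy day 2 and 57.9, 86.6 and 108.1 on Pregnancy day 3. All Pregnancy day 1 mice lay below all Pregnancy day 2 mice, and day 2 minus day 1 was 0.76 ± 0.46 (adjusted p 0.750). The Pregnancy day 1 mice spanned the range of Pregnancy day 3.

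Targets and partners of prolactin signalling were mixed. Elf5 had 85.5, 95.8 and 219.6 on Pregnancy day 1 and 58.9, 59.4 and 58.8 in Virgin 12 weeks mice, without overlap (1.04 ± 0.30, adjusted p 0.171). Socs2, a feedback inhibitor that Stat5 induces, had 123.6, 279.3 and 405.5 on Pregnancy day 1 and 126.2, 124.5 and 136.5 in Virgin 12 weeks mice (adjusted p 0.344). Mice B and C lay above the virgin range and mouse A just under it. Cish, another such inhibitor, had 96.0, 82.1 and 50.0 on Pregnancy day 1 and 77.8, 71.6 and 84.0 in Virgin 12 weeks mice (adjusted p 1.0), and Stat5a had 457.7, 524.5 and 515.3, against 463.9, 452.9 and 607.0. Esr1, the oestrogen receptor, was between 9.4 and 26.1 on all 6 arrays. Foxa1, its partner factor in luminal cells, had 208.9, 131.5 and 342.7 on Pregnancy day 1 and 121.9, 182.8 and 185.9 in Virgin 12 weeks mice (adjusted p 0.819).

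Of the 16 measured genes of the steroid, prolactin and STAT5 response 0 were called, and 4 higher and 0 lower had an unadjusted p under 0.05, which 3.47% and 7.31% of all genes had in these directions. Non-overlap was found for 2 higher (Wnt4 and Elf5) and 0 lower. Over all 8251 genes, each by 1 probe set, 6.71% had all Pregnancy day 1 mice above all Virgin 12 weeks mice and 10.1% all below. The median log2 difference of the list was 0.01, beside -0.02 over all genes. Prlr and Areg were not analysed here.

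**Figure D3:**
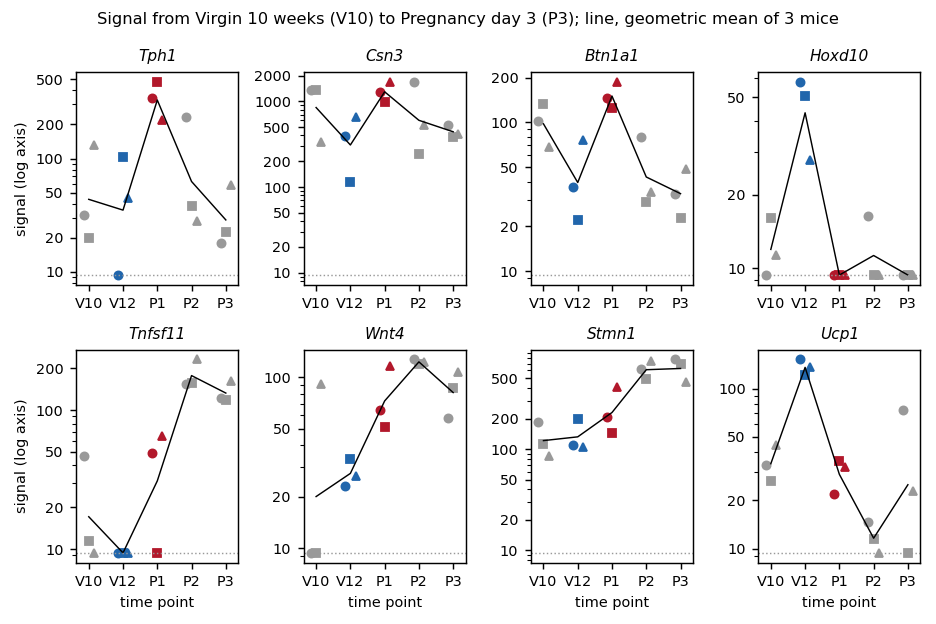
Signal on a log axis in each mouse at Virgin 10 weeks, Virgin 12 weeks (blue), Pregnancy day 1 (red), Pregnancy day 2 and Pregnancy day 3, with 1 symbol per mouse and a line through geometric means of 3 mice. Tph1 peaks at day 1, Tnfsf11 and Stmn1 are higher on days 2 and 3 than on day 1, and the Virgin 12 weeks means lie below both neighbouring time points for Csn3 and Btn1a1 and above both for Hoxd10 and Ucp1.

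Virgin mice of week 10 gave other differences for several of the called genes. At Virgin 10 weeks Csn3 had 1340.5, 1364.2 and 333.2. Mice A and B of that age lay within the Pregnancy day 1 range, and mouse C below it, within the Virgin 12 weeks range. Pregnancy day 1 minus Virgin 10 weeks was 0.61 ± 0.45 for Csn3 (adjusted p 0.831). Virgin 10 weeks had the widest spread among mice of the 18 time points, with a median SD of 0.337 on the log2 scale. Btn1a1 had 102.8, 133.2 and 68.1 at Virgin 10 weeks (difference 0.62 ± 0.39, adjusted p 0.746). Csn3 and Dynll2 had their lowest level of the 18 time points in Virgin 12 weeks mice. Tph1 had 32.0, 19.8 and 131.7 at Virgin 10 weeks, all below the 3 Pregnancy day 1 values (2.91 ± 0.66, adjusted p 0.0651).

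With Virgin 10 weeks in place of Virgin 12 weeks, 0 of the 8 genes were called. That comparison called 6 probe sets, 5 higher and 1 lower, and Virgin 12 weeks minus Virgin 10 weeks called 42, 33 higher and 9 lower. Among the 8 genes with bright probe sets, Galnt6 was called in that comparison, higher at Virgin 12 weeks (1.56 ± 0.33, adjusted p 0.0175), and the same Virgin 12 weeks mice enter both. Against the same Virgin 12 weeks mice, which all 3 comparisons share, 20 probe sets were called on Pregnancy day 1, 177 on Pregnancy day 2 (122 higher, 55 lower) and 359 on Pregnancy day 3 (213 higher, 146 lower). Directly against Pregnancy day 1, 17 were called on Pregnancy day 2 and 702 on Pregnancy day 3.

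After Pregnancy day 1 Tph1 was lower again. It had 231.6, 38.3 and 27.9 on Pregnancy day 2 and 18.0, 22.7 and 58.3 on Pregnancy day 3. The difference from Pregnancy day 1 was -2.39 ± 0.66 on day 2 (adjusted p 0.125) and -3.51 ± 0.66 on day 3 (adjusted p 0.00189). Btn1a1 had 79.4, 29.1 and 34.2 on Pregnancy day 2, a difference from Pregnancy day 1 of -1.81 ± 0.39 (adjusted p 0.0364). For Csn3 Pregnancy day 3 minus Pregnancy day 1 was -1.55 ± 0.45 (adjusted p 0.0323).

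Of 14 measured genes of milk proteins and the fat globule, Csn3 and Btn1a1 were the 2 called, both higher, with 0 lower, where 0.0364% of all genes were called higher and 0.097% lower. The median log2 difference of the list was 0.19. The other caseins went different ways among the mice. Csn1s1, alpha-S1-casein, had 2067.1, 286.5 and 1126.6 on Pregnancy day 1 and 185.6, 203.9 and 241.2 in Virgin 12 weeks mice, without overlap. Its spread over the time course was wide (2.06 ± 1.03, adjusted p 0.461). Csn2, beta-casein, had 352.0, 104.2 and 65.4 on Pregnancy day 1 and 91.0, 124.6 and 120.5 in Virgin 12 weeks mice (adjusted p 1.0). The whey protein Wap had 416.3, 218.3 and 9.4 on Pregnancy day 1 and 221.3, 238.2 and 281.9 in Virgin 12 weeks mice (adjusted p 0.579). Mouse A was thus the highest of the 3 day 1 mice for Csn1s1, Csn2 and Wap, whereas mouse C, at the floor for Wap, was the highest for Csn3.

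Epithelial lists had 0 called members. Of 21 luminal genes 2 lay above the virgin range, Epcam and Cldn3, and 1 below it, Elf3, against 6.71% and 10.1% of all genes. Epcam, an adhesion molecule of epithelia, had 115.4, 95.9 and 182.6 on Pregnancy day 1 and 53.9, 68.1 and 92.8 in Virgin 12 weeks mice (adjusted p 0.266). Krt18 had 740.3, 1611.4 and 1240.0 on Pregnancy day 1 and 589.6, 710.5 and 882.6 in Virgin 12 weeks mice, with an overlap of mouse A only (adjusted p 0.457). The median log2 difference of the luminal list was 0.24, and that of the 11 basal genes was 0.05.

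Fat cell genes had 0 calls as well. Adipoq, Retn and Lpl of 15 white fat cell genes lay above the virgin range and Slc2a4 and Gpd1 below it, against 6.71% and 10.1% of all genes. After quantile normalization 0 lay above and 3 below, against 7.79% and 8.04% of all genes. After median scaling 4 lay above and 1 below, against 14.3% and 4.96%. Gpd1, which makes the glycerol backbone of fat, had 1509.5, 1433.7 and 1433.3 on Pregnancy day 1 and 3012.7, 1979.3 and 2551.2 in Virgin 12 weeks mice. Of 7 brown fat cell genes 3 lay below the virgin range and 0 above, where 10.1% of all genes lay below. After quantile normalization 1 lay below, against 8.04% of all genes, and after median scaling 1, against 4.96%. The largest difference was that of Ucp1, the uncoupling protein of brown fat, with 21.9, 35.0 and 32.1 on Pregnancy day 1 and 151.9, 120.9 and 135.5 in Virgin 12 weeks mice (-2.22 ± 0.68, adjusted p 0.208). Ucp1 at Virgin 10 weeks was 33.1, 26.4 and 44.6, near the day 1 values.

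Genes of MHC class II, which present antigen to helper T cells, lay lower on day 1 as a list. All 3 Pregnancy day 1 mice were below all 3 Virgin 12 weeks mice for 6 of 8 genes, against 10.1% of all genes, and above for 0. The 6 were also below after quantile normalization and after median scaling. The median log2 difference was -0.60 and 0 of the 8 were called, with 5 lower at an unadjusted p under 0.05, beside 7.31% of all genes. Cd74, the invariant chain, had 1634.4, 1866.8 and 1873.5 on Pregnancy day 1 and 3125.9, 2627.4 and 2413.9 in Virgin 12 weeks mice (-0.60 ± 0.29, adjusted p 0.458). H2-Aa had 1103.1, 950.9 and 1134.0 on Pregnancy day 1 and 1807.2, 1610.0 and 1577.1 in Virgin 12 weeks mice, and Ciita, the factor that switches these genes on, had 24.0, 11.2 and 21.3, against 44.5, 29.9 and 27.6. The summed signal of the list ran from 4774.2 to 5484.3 on Pregnancy day 1 and from 6875.4 to 8340.2 in Virgin 12 weeks mice.

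Lymphocyte genes differed more among the day 1 mice than between the groups. The mean log2 signal of 12 T cell genes was 3.71, 4.19 and 5.64 in Pregnancy day 1 mice A, B and C, against 5.40, 5.52 and 4.98 in Virgin 12 weeks mice. For 11 B and plasma cell genes it was 4.46, 5.11 and 6.24 on Pregnancy day 1, against 5.79, 5.85 and 5.57 in Virgin 12 weeks mice. Pregnancy day 1 mice A and B were below the virgin range on both lists and mouse C above it. Mouse C was the highest of the day 1 mice for 10 of 12 T cell genes and 10 of 11 B and plasma cell genes, against 32.5% of all genes.

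Among the defining markers, Cd3e of the T cell receptor had 9.4, 15.6 and 109.8 on Pregnancy day 1 and 76.5, 82.9 and 51.1 in Virgin 12 weeks mice (adjusted p 0.409). Cd79b of the B cell receptor had 28.8, 39.0 and 213.9 on Pregnancy day 1 and 125.8, 122.0 and 94.0 in Virgin 12 weeks mice (adjusted p 0.685). Summed signals of the T cell list ran from 178.1 to 841.3 on Pregnancy day 1 and from 495.8 to 689.6 in Virgin 12 weeks mice. In mouse A, Cd3e, Cd3d, Cd3g, Cd5, Cd8a, Cd8b1 and Cd2 were all at 9.4. With 3 mice, 1 of 12 T cell genes lay below the virgin range, against 10.1% of all genes, and 0 were called. Without mouse C, 8 of 12 T cell and 8 of 11 B and plasma cell genes lay below it, against 14.9% of all genes. Mice A and B, low in lymphocyte genes, are also the mice with the Gapdh ratios of 23.1 and 20.1, and the part of that ratio in the list levels was not tested.

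**Figure D4:**
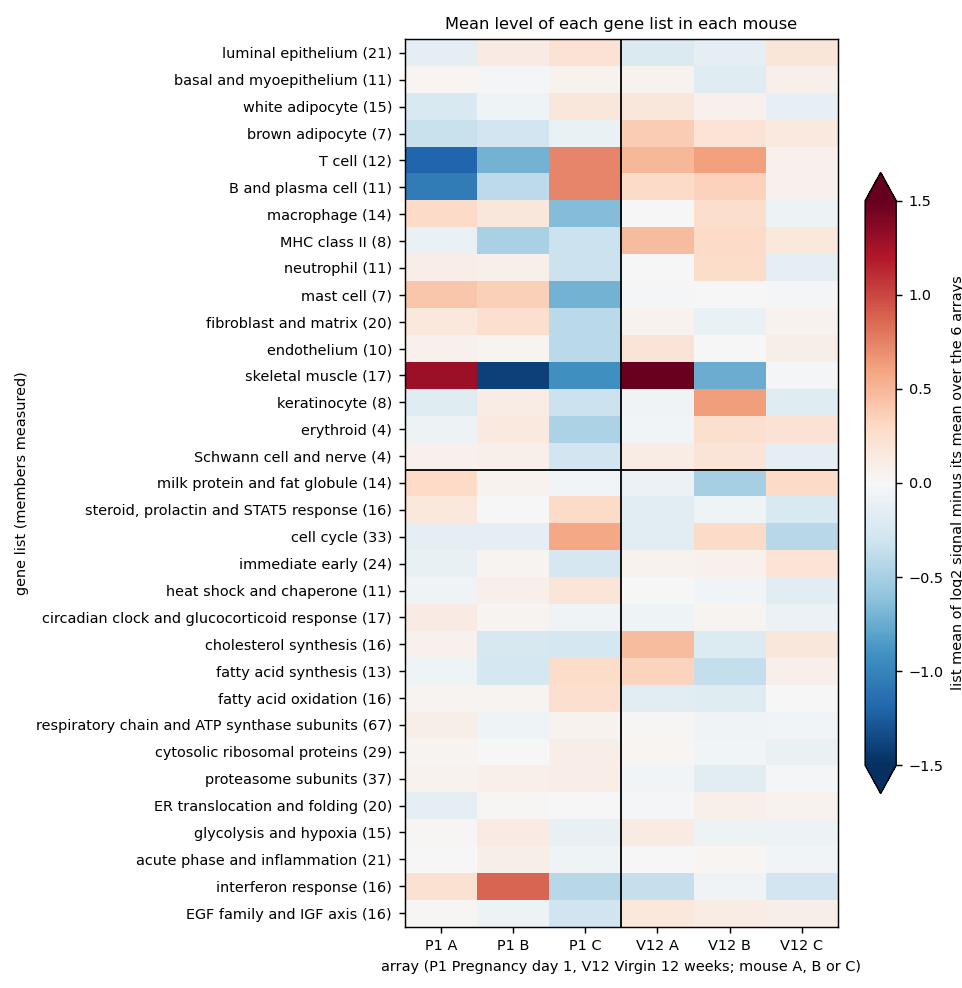
Mean log2 signal of each gene list in each mouse, minus its mean over the 6 arrays (red higher, blue lower, colours clipped at the ends of the bar), with the 3 Pregnancy day 1 (P1) arrays left of the 3 Virgin 12 weeks (V12) arrays; cell types stand above the horizontal line and pathways below it. The strongest colours follow single mice: skeletal muscle high in mouse A of both groups, T and B cell genes low in Pregnancy day 1 mouse A and high in mouse C, interferon genes high in Pregnancy day 1 mouse B.

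Contractile genes of skeletal muscle were high in mouse A of both groups. The mean log2 signal of 17 genes was 7.04, 4.37 and 4.85 in Pregnancy day 1 mice, against 7.57, 5.02 and 5.73 in Virgin 12 weeks mice. Mouse A was the highest for 15 of 17 in each group. Of all genes it was the highest for 27.5% on Pregnancy day 1 and 33.5% in Virgin 12 weeks mice. Acta1, the actin of muscle fibres, had 920.8, 9.4 and 66.6 on Pregnancy day 1 and 1293.1, 97.4 and 221.7 in Virgin 12 weeks mice (adjusted p 0.749). Myh4, a fast myosin, had 1035.0, 14.6 and 63.3 on Pregnancy day 1 and 871.2, 9.9 and 132.2 in Virgin 12 weeks mice. Summed signals of the list ran from 700.2 to 5362.4 on Pregnancy day 1 and from 965.6 to 7280.6 in Virgin 12 weeks mice, and 0 of the 17 were called.

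Acta1 and Myh4 belong to the 8 genes with the widest spread among the day 1 mice, the others being Wap, Glycam1, Aoc1, Atp2a1, Ogn and Ido1. They were taken by their spread, so the values are a description. Glycam1, a mucin of milk and of lymph node venules, had 24.6, 255.2 and 1196.6 on Pregnancy day 1 and 734.2, 693.9 and 536.5 in Virgin 12 weeks mice. It had the same order of day 1 mice as the T and B cell lists. Aoc1, an enzyme that degrades histamine and polyamines, had 37.5, 1089.9 and 37.4 on Pregnancy day 1 and 50.2, 57.1 and 251.4 in Virgin 12 weeks mice. Ido1, which degrades tryptophan, had 16.8, 633.8 and 43.2 on Pregnancy day 1 and 9.4, 54.2 and 65.5 in Virgin 12 weeks mice. For both of these probe sets it was mouse B alone that stood far above the rest. A second Ido1 probe set did not show this. It had 46.0, 9.4 and 39.3 on Pregnancy day 1, with mouse B lowest, and 26.5, 16.1 and 30.6 in Virgin 12 weeks mice. Ogn, a proteoglycan of connective tissue, had 361.1, 258.4 and 11.5 on Pregnancy day 1 and 158.6, 181.5 and 154.8 in Virgin 12 weeks mice, with mouse C far below.

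**Figure D5:**
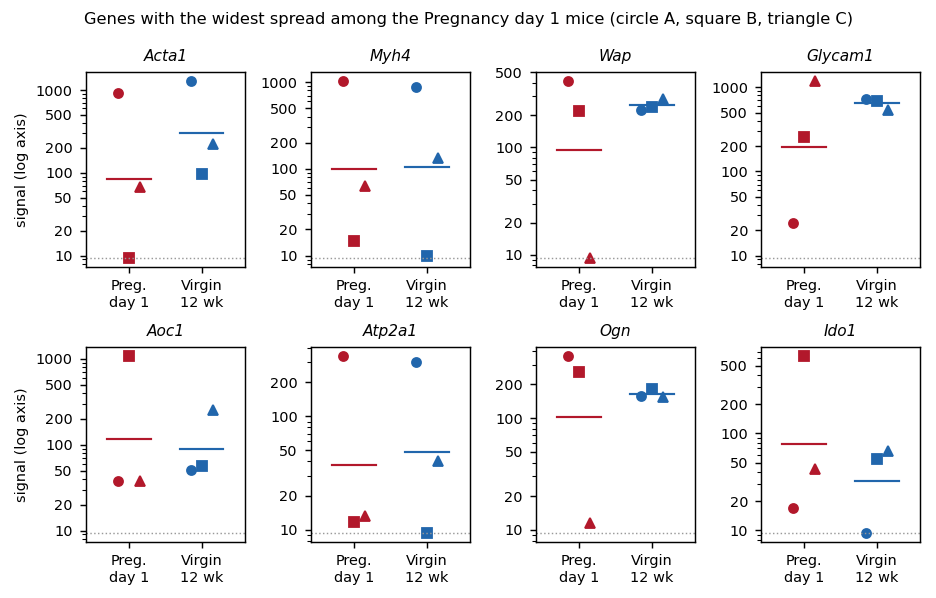
Signal on a log axis in each mouse for the 8 genes with the widest spread among the Pregnancy day 1 mice, Pregnancy day 1 (red) left of Virgin 12 weeks (blue); bars are geometric means of 3 mice. Acta1, Myh4 and Atp2a1 are highest in mouse A of both groups, Aoc1 and Ido1 in Pregnancy day 1 mouse B, and Ogn and Wap are lowest in Pregnancy day 1 mouse C.

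Mouse C of Pregnancy day 1 departed from its group most. It was over 2-fold above both other day 1 mice in 276 probe sets and over 2-fold below both in 338, 614 in all, against 235 for mouse A and 238 for mouse B. The Virgin 12 weeks mice had 313, 257 and 226. The correlation of log2 signals across 12422 probe sets, which are not independent, was 0.967 between day 1 mice A and B and 0.950 and 0.951 between each of them and mouse C. Among Virgin 12 weeks mice it was 0.960 to 0.968. Virgin 12 weeks mouse C correlated with Pregnancy day 1 mice A and B at 0.967 and 0.972, and with Virgin 12 weeks mice A and B at 0.966 and 0.968.

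Stromal lists shared the low value of mouse C. It was the lowest of the day 1 mice for 19 of 20 fibroblast and matrix genes, 10 of 14 macrophage genes and 5 of 7 mast cell genes, against 31.2% of all genes. The mean log2 signal of the fibroblast list was 9.62, 9.72 and 9.06 on Pregnancy day 1 and 9.52, 9.37 and 9.52 in Virgin 12 weeks mice. Col3a1, Col5a2, Lum and Postn lay above the virgin range in all 3 mice, which is 4 of 20 genes, against 6.71% of all genes. After quantile normalization 0 of the 20 did, against 7.79%. Cma1, a chymase of mast cells, had 1006.5, 740.6 and 200.9 on Pregnancy day 1 and 522.3, 600.4 and 578.6 in Virgin 12 weeks mice.

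Cycling genes were highest in mouse C. The mean log2 signal of 33 cell cycle genes was 5.09, 5.09 and 5.81 on Pregnancy day 1 and 5.07, 5.52 and 4.82 in Virgin 12 weeks mice. Mouse C was the highest day 1 mouse for 27 of 33, against 32.5% of all genes. In Virgin 12 weeks mice it was mouse B, for 22 of 33, against 31.8%. Of the 33 genes 0 were called, 1 lay above and 1 below the virgin range, and the median log2 difference was 0.10. After quantile normalization 3 lay above and 0 below, and after median scaling 4 and 0. Without Pregnancy day 1 mouse A 6 lay above. Of all genes 6.71% lay above with the signals as used, 7.79% and 14.3% under these scalings and 10.2% without mouse A. The shares of all genes below were 10.1% with the signals as used and 8.04% and 4.96% under these scalings. Stmn1, a tubulin-binding protein of dividing cells, had 207.2, 144.2 and 408.0 on Pregnancy day 1 and 110.3, 199.7 and 104.8 in Virgin 12 weeks mice (0.80 ± 0.33, adjusted p 0.348). It had 770.9, 696.0 and 460.7 on Pregnancy day 3, higher than on day 1 by 1.45 ± 0.33 (adjusted p 0.00748). Top2a, a topoisomerase of dividing cells, had 9.4, 20.6 and 37.0 on Pregnancy day 1 and 9.4, 18.3 and 9.4 in Virgin 12 weeks mice.

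Interferon response genes were highest in mouse B of the day 1 mice, for 10 of 16 genes, against 27.5% of all genes. In Virgin 12 weeks mice mouse B was the highest for 8 of 16, against 31.8%. The list mean was 6.60, 7.26 and 5.96 on Pregnancy day 1 and 6.04, 6.33 and 6.09 in Virgin 12 weeks mice. There were 0 calls and 1 gene each above and below the virgin range, against 6.71% and 10.1% of all genes. In limma 5 of the 16 were higher and 1 lower at an unadjusted p under 0.05, beside 3.47% and 7.31% of all genes. After median scaling 6 of the 16 lay above, where 14.3% of all genes did, and without Pregnancy day 1 mouse C 6 did, against 11.5%. Ifit1, which binds viral RNA, had 56.5, 228.5 and 24.6 on Pregnancy day 1 and 22.3, 39.4 and 28.6 in Virgin 12 weeks mice. The antiviral gene Rsad2 was the one above, with at least 16.6 in each Pregnancy day 1 mouse and 9.4 in all 3 Virgin 12 weeks mice (adjusted p 0.130).

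Immediate early genes, which answer to growth signals and to handling of the tissue, had 0 calls, and 4 of 24 (Fosb, Junb, Btg2 and Maff) lay below the virgin range with 0 above, where 10.1% of all genes lay below and 6.71% above. Fos had 52.0, 68.8 and 132.4 on Pregnancy day 1 and 92.3, 75.7 and 82.2 in Virgin 12 weeks mice (adjusted p 1.0). Jun had 81.5, 67.2 and 57.9 on Pregnancy day 1 and 75.2, 101.7 and 72.8 in Virgin 12 weeks mice (adjusted p 0.779), and Egr1 had 177.9, 208.6 and 70.1, against 233.2, 194.6 and 266.9 (adjusted p 0.657). Genes of the circadian clock and the glucocorticoid response, which vary with the hour and with stress, had 3 of 17 above and 1 below, against the same shares. Dbp, a clock output factor, had 96.7, 160.4 and 129.8 on Pregnancy day 1 and 45.9, 71.6 and 36.7 in Virgin 12 weeks mice (1.35 ± 0.65, adjusted p 0.447), and the clock gene Per1 had 10.6, 26.8 and 52.3, against 10.8, 14.6 and 26.7.

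Housekeeping lists had medians above 0, and their counts followed the scaling. Of 67 subunits of the respiratory chain and ATP synthase 15 lay above the virgin range and 5 below, of 37 proteasome subunits 9 above and 2 below, of 29 ribosomal proteins 5 above and 0 below, and of 16 genes of fatty acid oxidation 5 above and 0 below. Of all genes 6.71% lay above and 10.1% below. The median log2 differences of these lists were 0.13, 0.18, 0.13 and 0.26, and 0 of their members were called. After quantile normalization the numbers above were 6, 7, 2 and 3, where 7.79% of all genes lay above. The numbers below were then 8, 2, 0 and 1, where 8.04% of all genes lay below. After median scaling the numbers above were 28, 18, 18 and 8, where 14.3% of all genes lay above. Acadm, which oxidises medium-chain fatty acids, had 1624.8, 1656.4 and 2196.1 on Pregnancy day 1 and 1192.1, 1460.5 and 1284.1 in Virgin 12 weeks mice.

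The other lists held 0 called genes. Cholesterol synthesis had 2 of 16 below (Mvk and Nsdhl), the acute phase list 1 above (the iron-binding Lcn2) and 3 below of 21, and the EGF family and IGF axis 2 below of 16, where 10.1% of all genes lay below and 6.71% above. Egfr, the EGF receptor, had 35.4, 26.1 and 32.5 on Pregnancy day 1 and 77.9, 75.4 and 64.6 in Virgin 12 weeks mice (-1.22 ± 0.43, adjusted p 0.279). Nsdhl, an enzyme late in cholesterol synthesis, had 134.5, 144.5 and 134.9 on Pregnancy day 1 and 385.6, 178.5 and 257.3 in Virgin 12 weeks mice. Lcn2 had 672.6, 530.7 and 763.1 on Pregnancy day 1 and 368.4, 284.4 and 436.1 in Virgin 12 weeks mice.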

How the data were processed

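The 6 arrays are Affymetrix 1-channel arrays, 1 mouse each. The deposited values are signal intensities on a linear scale that the authors computed with MAS5, per the submitters' processing notes, which name no version. The 2% trimmed mean of every array lay between 100.05 and 100.07. A floor of 9.4 (the 25th percentile) was applied before log2 values were taken, and dim probe sets were kept. All 54 arrays were fitted with limma 3.58.1 in R 4.3.3, 1 mean per time point, with an eBayes variance trend (1.21 prior and 36 residual degrees of freedom). Two-sided p values had Benjamini-Hochberg adjustment over 12422 probe sets, and the fit was tested on simulated data. Of these 10833 had 1 gene symbol, 396 several and 1193 none, from the platform annotation; 10817 of the first were matched to the RefSeq table. A gene with several probe sets is given in lists by the brightest.

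Named genes were the called or nearest 12 in each direction, non-overlapping and past the 40th percentile, a fixed set, and the 8 with the widest spread on Pregnancy day 1. The comparison, members and lists were chosen with earlier results of these data known. Single genes shown within a list were chosen after their values were seen. Python 3.11.15 with scipy 1.17.1, numpy 2.4.6 and pandas 2.3.3 served for tables, and matplotlib 3.10.9 for figures. Alternatives were other floors, scalings and filters, the 6 arrays alone, no trend, array weights, a letter block, control ratios as covariates, other virgin references and leaving out arrays. Deviations of same-letter mice correlated at 0.0794 (A), 0.0729 (B) and 0.0296 (C), so the letters were not taken to pair mice.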

Additional observations from a re-analysis of the deposited data

How the results depend on the processing

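The count of 20 called probe sets moved under most settings. It was 1 with no floor, where the median of all log2 differences shifted to -0.15 from -0.01. It was 12 after quantile normalization, 9 after median scaling, 9 with a filter on dim probe sets, 7 with that filter and 1 probe set per gene, and 0 on the 6 arrays alone (1174 at an unadjusted p under 0.05). It was 36 with array quality weights, 5 with the ratio of beta-actin in the fit, 10 with both control ratios and 2 against the mean of both virgin ages. Chosen after seeing the data, Virgin 10 weeks as the reference gave 6, and leaving out Pregnancy day 1 mice A and B together gave 178. Leaving out 1 array gave 10 to 186, the highest without Virgin 12 weeks mouse C and the lowest without Pregnancy day 1 mouse C. The replicate block by letter gave 19, all 19 among the 20; no intensity trend gave 19, all 19 among the 20, and the Gapdh ratio 16, of which 10 were among the 20. A floor at the 40th percentile gave 20, of which 4 were among the 20, and Hoxd10, Eln, Galnt6 and Fam3a were not called with it (adjusted p 0.052 to 0.432). Each mouse correlated best with its own letter, though at values under 0.1. None of the 8 bright called genes changed direction in these settings. Of the 8 bright called genes, Btn1a1 was called in the most, 10 of 16 settings besides leaving out 1 array, and Eln in the fewest, 3 of 15. The difference in mean Gapdh ratio was 11.3 and ranged from 7.32 to 17.7 when 1 array was left out; that of beta-actin was 1.49 and ranged from 1.15 to 1.95. Signals near the floor carry no order, which limits the 12 dim calls, and the causes of these shifts were not tested.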
